A study of Oreochromis niloticus with 6 samples.

Results

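The vessel genes described here encode the endothelial receptors kdr, kdrl, flt1, flt4, tek and tie1, the endothelial junction protein cdh5, the secreted ligands angpt1 and angpt2, and the vasoconstrictor precursor edn1. They were chosen by symbol, allowing for the a and b copies of bony fish, in an RNA-seq table of gill. They and the gene lists set beside them below were chosen with earlier results of these data known. Of the 10 symbols, 9 were found, in 10 of the 40538 rows of the table, since angpt2 has the copies angpt2a and angpt2b. No row matched tek, which is therefore not analysed here. The fish were GIFT, a Nile tilapia (Oreochromis niloticus) strain bred for farming, and their gills were sequenced in 6 libraries, 3 labelled control and 3 labelled hypoxia stress. Per the labels, the control water held 5 mg/L of dissolved oxygen, and that of the exposed fish was brought down with nitrogen within 30 min to close to 1 mg/L. Both groups were sampled at 96 h. The labels give conflicting tank layouts and do not tie a library to a tank, to 1 fish or to a pool. The p-values therefore measure only the spread between these libraries, which may be technical. The labels state neither the age nor the sex of the fish.

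Blood vessels are lined by endothelial cells, which carry receptors for the vascular endothelial growth factors (kdr, kdrl, flt1 and flt4) and for the angiopoietins (tek, aided by tie1), and which adhere to each other through the cadherin cdh5. In a fish gill, blood crosses the respiratory lamellae through channels held open by pillar cells, a specialised endothelial cell with contractile filaments. Endothelin, the peptide cut from the edn1 product, contracts vascular cells through receptors of the ednra and ednrb families, and it has been reported to act on pillar cells in cod.

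The labels could be checked on a gene known to be induced by low oxygen. egln3, a prolyl hydroxylase of the oxygen-sensing pathway, was at 46.4 to 112 FPKM (fragments per kilobase of transcript, scaled to the number of mapped fragments) in the libraries labelled control and at 2.55 to 3.95 FPKM in those labelled hypoxia. This goes against the usual direction of this gene. A list of 15 textbook target symbols of the hypoxia-inducible factor was written after egln3 had been seen and includes it. No tested row matched vegfa, slc2a1, ca9 or ankrd37, so these targets were not examined, while pgk1, p4ha1 and pfkfb4 each had more than 1 row. Of the 14 tested rows of this list, 4 were called lower in the libraries labelled hypoxia by the test described below, none was called higher and 10 did not pass. Over all tested rows 3.30% were called lower and 3.46% higher. The 4 were egln3, pfkfb4a, its copy pfkfb4b and the pgk1 locus MSTRG.17627. Of the 14 estimates, labelled hypoxia minus labelled control, 10 were below 0 and 4 above 0. Their median was -0.47 on the log2(FPKM + 1) scale, beside 0.05 over all tested rows. Another pgk1 locus, MSTRG.17628, was at 10.5 FPKM on average in the libraries labelled control and at 20.4 FPKM in those labelled hypoxia (limma adjusted p = 0.0932). Every direction in the text rests on the labels as deposited, and an exchange of the group labels would turn each rise into a fall and each fall into a rise. The groups are therefore called labelled control and labelled hypoxia. Summed FPKM over all rows were 438405 to 455738 in the libraries labelled control and 466826 to 483691 in those labelled hypoxia. The sequencing depth itself is unknown. From the spacing of the lowest values, the libraries labelled control had 1.09 to 1.21 times the depth of hypoxia replicate 1. Hypoxia replicates 2 and 3 had 1.06 and 1.07 times that depth. In both quantities the groups did not overlap. Hemoglobin RNA differed between libraries of the same group. The summed FPKM of 11 hemoglobin rows were 38154 in control replicate 1 but 2936 and 3359 in control replicates 2 and 3, and 24371, 58960 and 31915 in hypoxia replicates 1 to 3.

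None of the vessel genes passed the test between the groups. Of the 10 rows, 8 averaged 1 FPKM or more across the libraries and were tested, and 0 of these were called higher or lower by limma at a Benjamini-Hochberg adjusted p under 0.05. Over all 25111 tested rows, 6.77% were called, 3.46% higher and 3.30% lower (870 and 829 rows, or 593 and 941 on the TPM scale, where every library has the same sum). At an unadjusted p under 0.05 the test found 2 of the 8 rows, kdrl and flt1, a share of 25% beside 25.4% of all tested rows. The groups did not overlap in 3 of the 8 (37.5%), kdrl, flt1 and tie1, beside 33.2% of all tested rows. Both shares lie near those of the whole table. The median difference of the 8 rows was -0.12 on the log2(FPKM + 1) scale, labelled hypoxia minus labelled control, beside 0.05 over all tested rows. In 15 alternative settings the count stayed at 0 and the median below 0, and the lowest adjusted p of any vessel gene was 0.0769, for kdrl after quantile normalization. A gene that misses the threshold is not shown to be the same in both groups, and the interval of each difference is therefore given.

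**Figure D1:**
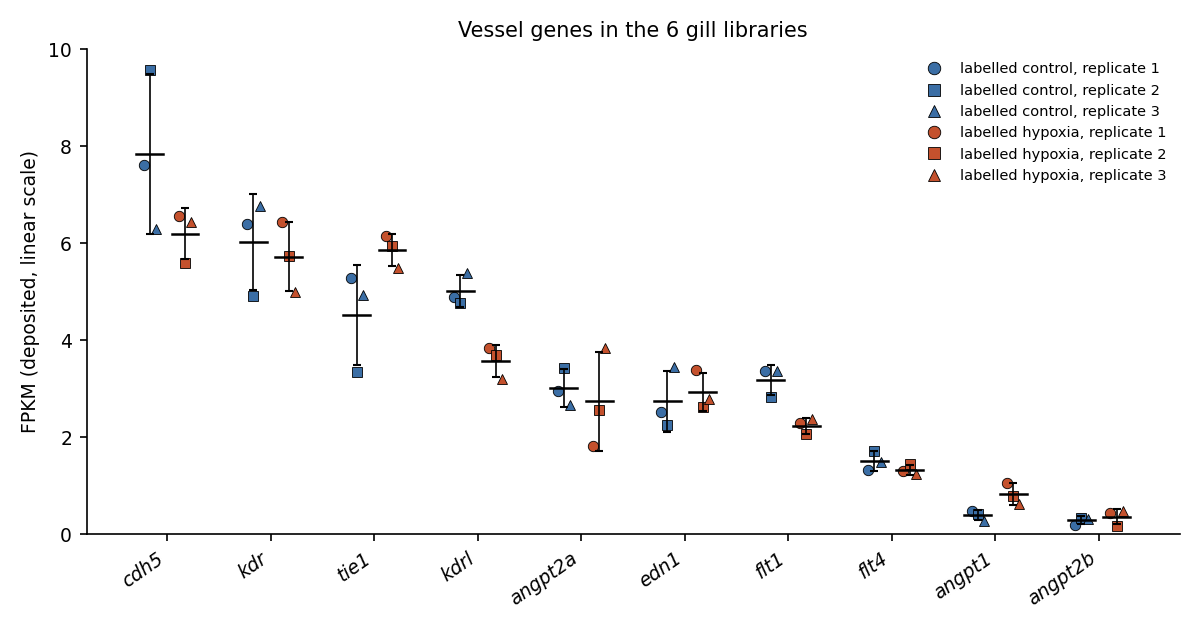
Deposited FPKM of the 10 vessel rows (vertical axis, linear) in each library, ordered by mean level. Blue symbols are the 3 libraries labelled control and orange symbols the 3 labelled hypoxia, the symbol shape gives the replicate number, horizontal lines are group means and error bars are SD. The orange symbols lie below the blue ones for kdrl and flt1 and above them for tie1 and angpt1, and the colours overlap for the other 6 rows.

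Among the receptors for vascular endothelial growth factors, kdrl (MSTRG.9543), one of the main signalling receptors and a common marker of vessels in zebrafish, had the smallest p of the vessel genes. It was at 4.89, 4.77 and 5.38 FPKM in control replicates 1 to 3 and at 3.84, 3.70 and 3.20 FPKM in hypoxia replicates 1 to 3. All libraries labelled hypoxia lay below all those labelled control. The means were 5.02 ± 0.32 and 3.58 ± 0.34 FPKM (SD, n = 3 each), with the lower mean in the libraries labelled hypoxia. On the log2(FPKM + 1) scale the difference was -0.40 ± 0.12 (SE), with a 95% interval of -0.69 to -0.10 before correction and a limma adjusted p of 0.108.

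flt1 (MSTRG.7354), which binds these growth factors tightly and acts in part as a decoy for them, showed a difference of similar size. Its FPKM were 3.38, 2.84 and 3.36 in control replicates 1 to 3 and 2.29, 2.06 and 2.38 in hypoxia replicates 1 to 3. Again the groups did not overlap, and the means were 1.42-fold apart. The log2 difference was -0.37 ± 0.13 (SE; 95% interval -0.69 to -0.04), with a limma adjusted p of 0.157. In bulk gill, fewer vessel cells and less of an RNA per cell cannot be told apart.

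The paralogue of kdrl, kdr (MSTRG.3233), did not share this pattern. Its FPKM were 6.40, 4.91 and 6.78 in control replicates 1 to 3 and 6.43, 5.74 and 5.00 in hypoxia replicates 1 to 3. The groups overlapped almost fully, and the log2 difference was -0.06 (95% interval -0.44 to 0.32, adjusted p = 0.846). Whether kdr and kdrl differ in their response was not tested. In the table's orthology column kdrl carries K05096, the same identifier as flt1, while kdr carries K05098. Each of kdr, kdrl and flt1 is a locus of 3 transcripts, of which 1, 2 and 2 are Ensembl transcripts and the others were assembled from the reads.

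flt4 (MSTRG.10209), the receptor known for its role in lymphatic and venous vessels, was the lowest of the 4 growth factor receptors. It ranged from 1.33 to 1.73 FPKM in the libraries labelled control and from 1.25 to 1.45 FPKM in those labelled hypoxia. The ranges overlapped, and the log2 difference was -0.10 (95% interval -0.53 to 0.32, adjusted p = 0.747).

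In the angiopoietin system, the receptor tie1 (MSTRG.18758), which modulates the signal of tek, went the other way from kdrl and flt1. It was at 5.28, 3.34 and 4.93 FPKM in control replicates 1 to 3 and at 6.15, 5.95 and 5.49 FPKM in hypoxia replicates 1 to 3. The groups did not overlap, but control replicate 2 lay well below the other libraries. The means were 4.52 ± 1.03 and 5.86 ± 0.34 FPKM (SD, n = 3 each), with a log2 difference of 0.33 ± 0.17 (SE; 95% interval -0.08 to 0.75) and an adjusted p of 0.283.

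The ligands were expressed at lower levels. angpt1 (MSTRG.11983), the ligand that activates tek, was at 0.485, 0.416 and 0.281 FPKM in control replicates 1 to 3 and at 1.07, 0.794 and 0.618 FPKM in hypoxia replicates 1 to 3. The groups did not overlap and the means were 2.10-fold apart, but the mean over all libraries (0.610 FPKM) was below the minimum for testing. Tested without that filter, among all 40538 rows, angpt1 had a log2(FPKM + 1) difference of 0.39 ± 0.15 (SE; 95% interval 0.02 to 0.75) and an adjusted p of 0.234.

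angpt2a (MSTRG.4440) is a copy of angpt2, whose product can block or mimic angpt1 at tek depending on context. It was at 2.96, 3.43 and 2.67 FPKM in control replicates 1 to 3 and at 1.83, 2.56 and 3.84 FPKM in hypoxia replicates 1 to 3. The libraries labelled hypoxia held both the lowest and the highest value, and the log2 difference was -0.13 (95% interval -0.68 to 0.42, adjusted p = 0.752). The other copy, angpt2b, reached at most 0.481 FPKM in any library and was not tested with the filter (adjusted p = 0.738 without it). The log2 ratio of summed angpt2 to angpt1, each with 1 FPKM added, was 1.63 ± 0.14 in the libraries labelled control and 1.15 ± 0.53 in those labelled hypoxia (SD, n = 3 each). An exact two-sided permutation test of this ratio gave p = 0.3, where 3 libraries against 3 cannot go below 0.1. The added 1 FPKM exceeds the mean of angpt1 in both groups (0.394 and 0.826 FPKM), so the size of this ratio depends on it. The difference between the groups was -0.48, and -1.03 with 0.1 FPKM added instead (exact permutation p = 0.2).

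The junction gene cdh5 (MSTRG.1418), which encodes the adhesion molecule between endothelial cells, had the highest level of the vessel genes. It was at 7.62, 9.58 and 6.30 FPKM in control replicates 1 to 3 and at 6.56, 5.59 and 6.43 FPKM in hypoxia replicates 1 to 3. Control replicate 2 was the highest and control replicate 3 lay within the other group. The log2 difference was -0.28 ± 0.17 (SE; 95% interval -0.69 to 0.12), with an adjusted p of 0.341.

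With cdh5 as a reference within each library, the other 9 vessel rows were compared as log2 ratios after adding 1 FPKM to both. For kdrl this ratio was -0.54 ± 0.34 in the libraries labelled control and -0.65 ± 0.17 in those labelled hypoxia (SD, n = 3 each), and for flt1 it was -1.06 ± 0.37 and -1.15 ± 0.05. For both genes the groups overlapped (exact two-sided permutation p = 0.7 each). The ratio of tie1 was -0.68 ± 0.53 and -0.07 ± 0.14, and that of angpt1 was -2.65 ± 0.22 and -1.98 ± 0.19. In these 2 rows the groups did not overlap, with the smallest exact p that the design allows (0.1, and 0.45 after adjustment over the 9 rows). cdh5 itself was highest in control replicate 2, and without that library the difference for tie1 went from 0.61 to 0.31 and that for kdr from 0.22 to -0.036. The differences for kdrl and flt1 went from -0.11 to -0.28 and from -0.09 to -0.29 (exact permutation p = 0.4 and 0.2). Without control replicate 3 instead, they were 0.058 and 0.073. The overlap of the groups in these ratios therefore does not show that kdrl and flt1 followed cdh5.

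Ordered by mean FPKM over the 6 libraries, the rows ran cdh5 (7.01), kdr (5.88), tie1 (5.19), kdrl (4.30), angpt2a (2.88), edn1 (2.84), flt1 (2.72), flt4 (1.43), angpt1 (0.610) and angpt2b (0.329). FPKM is scaled to transcript length, so levels can be set side by side. The ranges of neighbours in this order overlapped, except between flt1 and flt4 and between flt4 and angpt1, where the higher gene lay above the lower in all 6 libraries. The order also differed between libraries labelled control. In control replicate 2 cdh5 had its highest level of the 6 libraries, while kdr, tie1 and edn1 had their lowest. The summed level of the 10 rows was 33.6 to 35.1 FPKM in the libraries labelled control and 30.7 to 33.3 FPKM in those labelled hypoxia.

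The 3 rows with a pattern nearest to that of cdh5, of 13227 tested rows with a symbol, were kdm8, slc6a13 and exoc8. Their centred log2(FPKM + 1) values differed from those of cdh5 by a root mean square of 0.031, 0.047 and 0.057 over the 6 libraries. All 3 were highest in control replicate 2, as cdh5 was, which follows from how they were picked. Since only 3 of 13227 rows were kept, the absence of the other endothelial genes listed below says nothing about their pattern.

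**Figure D2:**
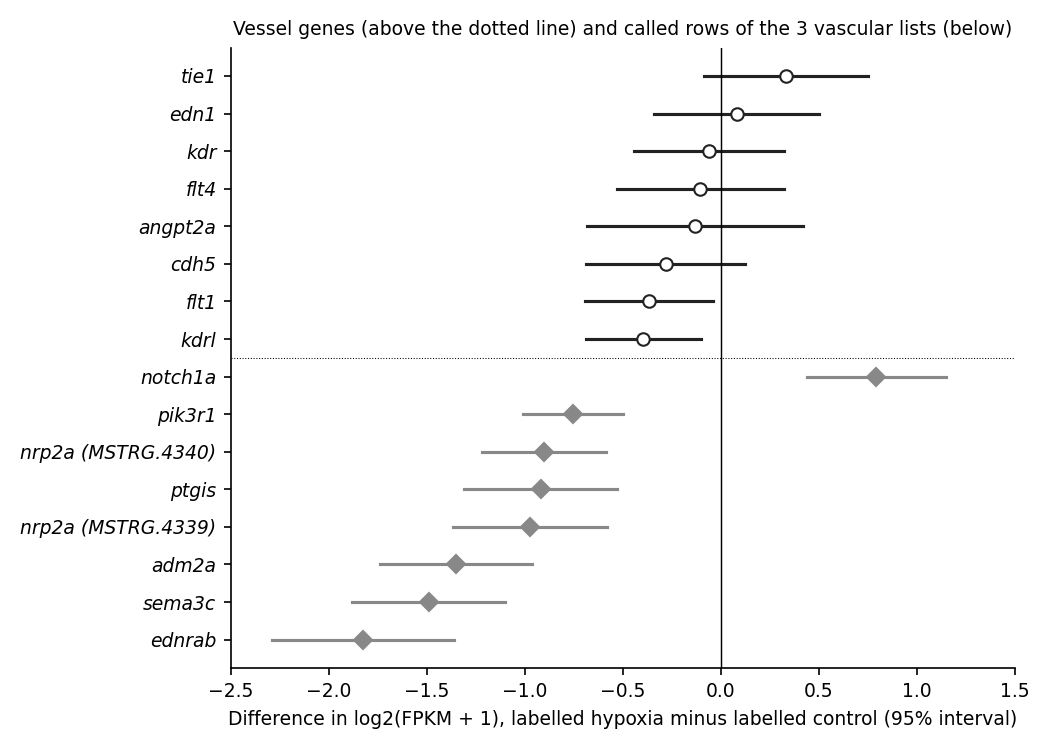
Difference in log2(FPKM + 1), labelled hypoxia minus labelled control, with its 95% interval before correction, for the 8 tested vessel genes (above the dotted line) and for the 8 called rows of the vascular lists (below it). Open circles did not pass an adjusted p of 0.05 and filled diamonds did. The vessel genes lie between -0.40 and 0.33, and the called rows at 0.79 (notch1a) and between -1.83 and -0.76.

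edn1 (MSTRG.12029), the source of endothelin, was at 2.52, 2.26 and 3.45 FPKM in control replicates 1 to 3 and at 3.39, 2.63 and 2.80 FPKM in hypoxia replicates 1 to 3. The groups overlapped, with a log2 difference of 0.08 (95% interval -0.34 to 0.50, adjusted p = 0.807). Its receptor ednrab, in contrast, fell.

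ednrab (MSTRG.25256), an endothelin receptor of the ednra family, was at 13.9, 15.2 and 15.4 FPKM in control replicates 1 to 3 and at 3.97, 2.40 and 4.25 FPKM in hypoxia replicates 1 to 3. The groups lay far apart, and the means differed 4.19-fold. The log2 difference was -1.83 ± 0.19 (SE), with a limma adjusted p of 0.0117, and the call held with each library left out in turn (adjusted p = 0.00932 to 0.0464). A second locus with this symbol, MSTRG.25257, was listed at 0 in 4 libraries and at 0.795 and 1.14 FPKM in control replicate 1 and hypoxia replicate 1.

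The other endothelin receptors did not pass. They and the converting enzymes are named for their part in the pathway, after their values were seen. ednraa was at 5.22 ± 1.96 and 6.42 ± 1.29 FPKM (adjusted p = 0.558) and ednrba at 3.12 ± 1.24 and 5.70 ± 3.38 FPKM (SD, n = 3 each; adjusted p = 0.398). Of the loci of ece1, which cuts the endothelin precursor, MSTRG.12698 was at 7.96 to 8.80 and 9.96 to 10.8 FPKM (adjusted p = 0.147) and MSTRG.12699 at 2.98 to 4.70 and 1.68 to 2.89 FPKM (adjusted p = 0.201).

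**Figure D3:**
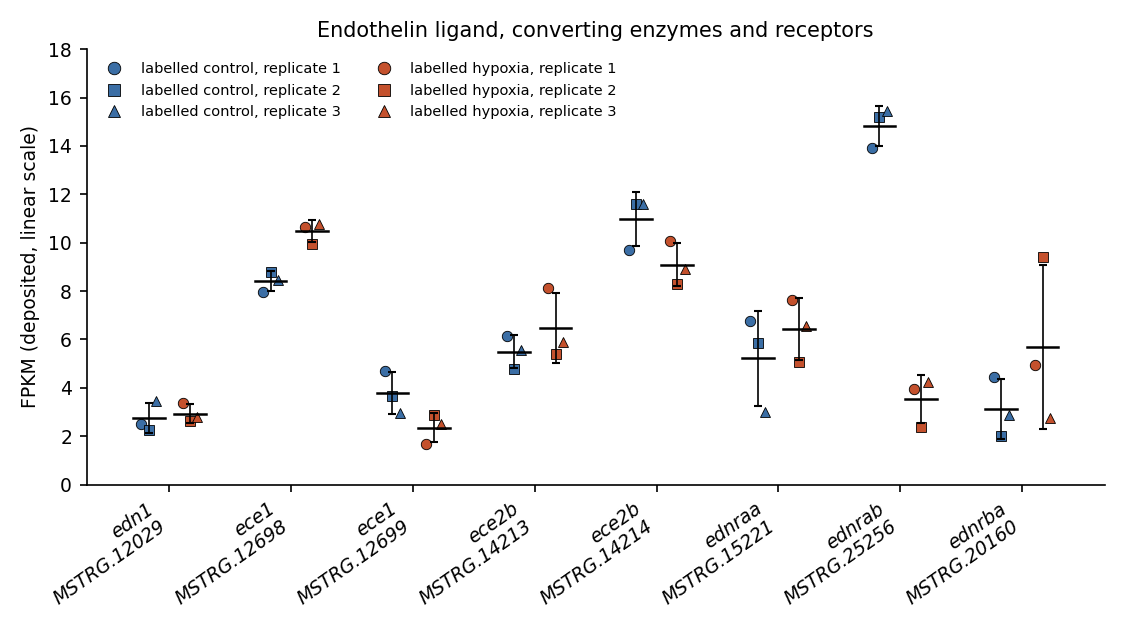
Deposited FPKM (vertical axis, linear) of edn1, of the tested loci of the converting enzymes ece1 and ece2b and of the tested endothelin receptor loci, in each library. Blue is labelled control and orange labelled hypoxia, the shape gives the replicate number, lines are group means and error bars SD. ednrab is the row with a wide gap, 13.9 to 15.4 FPKM against 2.40 to 4.25 FPKM, while edn1 overlaps between 2.26 and 3.45 FPKM.

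Of 13 tested rows in the list of endothelin and vascular tone genes, 3 fell, none rose and 10 did not pass, 23.1% beside 6.77% of all rows. The list had a median difference of 0.07, so its calls were not shared by most of its rows. Besides ednrab these were adm2a, which encodes a vasodilator peptide of the adrenomedullin family, and ptgis, which makes the vasodilator prostacyclin. adm2a was at 6.92, 5.81 and 6.20 FPKM in control replicates 1 to 3 and at 1.53, 2.40 and 1.71 FPKM in hypoxia replicates 1 to 3 (3.36-fold, adjusted p = 0.0139). ptgis (MSTRG.13494) fell from 28.6 ± 5.96 to 14.5 ± 0.74 FPKM (SD, n = 3 each; adjusted p = 0.0307). adm2a missed the threshold when control replicate 2 or either of hypoxia replicates 1 and 3 was left out (adjusted p = 0.0506 to 0.0558), and ptgis passed only without control replicate 1 (0.0410, and 0.0527 to 0.103 without each of the others).

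Among 36 tested rows of partners of the growth factor and angiopoietin pathways, 4 fell, none rose and 32 did not pass (11.1% called). Over all tested rows 6.77% were called, and 3.30% were called lower. The median difference of the list was -0.06. sema3c, a secreted guidance factor that binds neuropilins, was at 3.16, 3.83 and 3.71 FPKM in control replicates 1 to 3 and at 0.627, 0.553 and 0.683 FPKM in hypoxia replicates 1 to 3. This was a 5.74-fold difference of means (log2 difference -1.49 ± 0.16 SE, adjusted p = 0.0120). With a mean of 2.09 FPKM over all libraries, sema3c passed the filter of 1 FPKM only through the libraries labelled control. Those labelled hypoxia averaged 0.621 FPKM.

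nrp2a encodes a neuropilin, a coreceptor for semaphorins and for the growth factors that bind flt4. Its loci MSTRG.4340 and MSTRG.4339 fell, from 38.8 ± 0.71 to 20.4 ± 3.02 FPKM and from 18.6 ± 3.61 to 8.87 ± 0.57 FPKM (SD, n = 3 each; adjusted p = 0.0202 and 0.0270). As loci of 1 symbol they may share reads and are not independent. The remaining locus, MSTRG.7065, was under 1.2 FPKM in every library.

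pik3r1, a regulatory subunit of the phosphoinositide kinase used by many receptors, fell in 1 locus (MSTRG.15121, 44.9 ± 3.02 to 26.2 ± 1.83 FPKM, adjusted p = 0.0183) and was at 12.3 and 12.4 FPKM in another (MSTRG.29123, adjusted p = 0.964). Leaving out control replicate 2 took away all 4 calls of this list (adjusted p = 0.0526 for sema3c), while 3 were left when control replicate 1 or hypoxia replicate 2 was dropped, and 1 when any other library was. Of the called loci, sema3c passed in 5 of 6 such fits (0.0230 to 0.0479), pik3r1 in 2, and each nrp2a locus in 1, with adjusted p = 0.0501 to 0.0994 where nrp2a missed.

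In the list of other endothelial genes, estimates went in both directions. The part of other cells of the gill in these rows was not tested. Of 41 tested rows, 1 rose, none fell and 40 did not pass (2.44% called, beside 6.77% of all tested rows). The median was 0.13, with estimates above 0 in 25 rows and below 0 in 16. Over all tested rows the median was 0.05, with 13647 estimates above 0 and 11464 below. The row that rose was notch1a, a receptor of arterial endothelium that many other cells also use. It was at 2.14, 2.79 and 2.89 FPKM in control replicates 1 to 3 and at 5.89, 4.97 and 4.87 FPKM in hypoxia replicates 1 to 3 (adjusted p = 0.0346), and the call was lost with any 1 library left out (0.0598 to 0.121). The list then had no call.

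A few members of that list are named after their values were seen, to set beside cdh5. pecam1, another adhesion molecule of endothelium, was at 7.33 ± 1.24 and 5.83 ± 0.60 FPKM (adjusted p = 0.300). Other rows of the list had estimates of the opposite sign and did not pass either. vwf was at 23.2 ± 7.83 and 39.5 ± 8.79 FPKM (limma adjusted p = 0.158). The egfl7 locus MSTRG.15166 was at 6.30 ± 1.49 and 9.95 ± 1.72 FPKM (SD, n = 3 each; limma adjusted p = 0.131). The 4 rows next to the threshold had estimates in both directions and did not pass. The flow-responsive transcription factor klf2a was at 15.3 ± 1.86 and 25.3 ± 3.80 FPKM (adjusted p = 0.0529), and the scavenger receptor mrc1a, a marker of venous and lymphatic endothelium in zebrafish, was at 3.16 ± 0.21 and 1.68 ± 0.28 FPKM (SD, n = 3 each; adjusted p = 0.0606). The transcriptional regulator lmo2 was at 4.79 ± 2.11 and 13.3 ± 2.56 FPKM (adjusted p = 0.0650) and the endothelial transcription factor fli1b at 6.61 ± 0.62 and 9.34 ± 0.38 FPKM (SD, n = 3 each; adjusted p = 0.0712). The groups did not overlap in any of the 4 rows, which were picked for their small p. Over the whole list the groups did not overlap in 12 of 41 tested rows (29.3%), beside 33.2% of all tested rows. The summed level of the 50 rows of the list was 258 to 309 FPKM in the libraries labelled control and 277 to 389 FPKM in those labelled hypoxia.

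**Figure D4:**
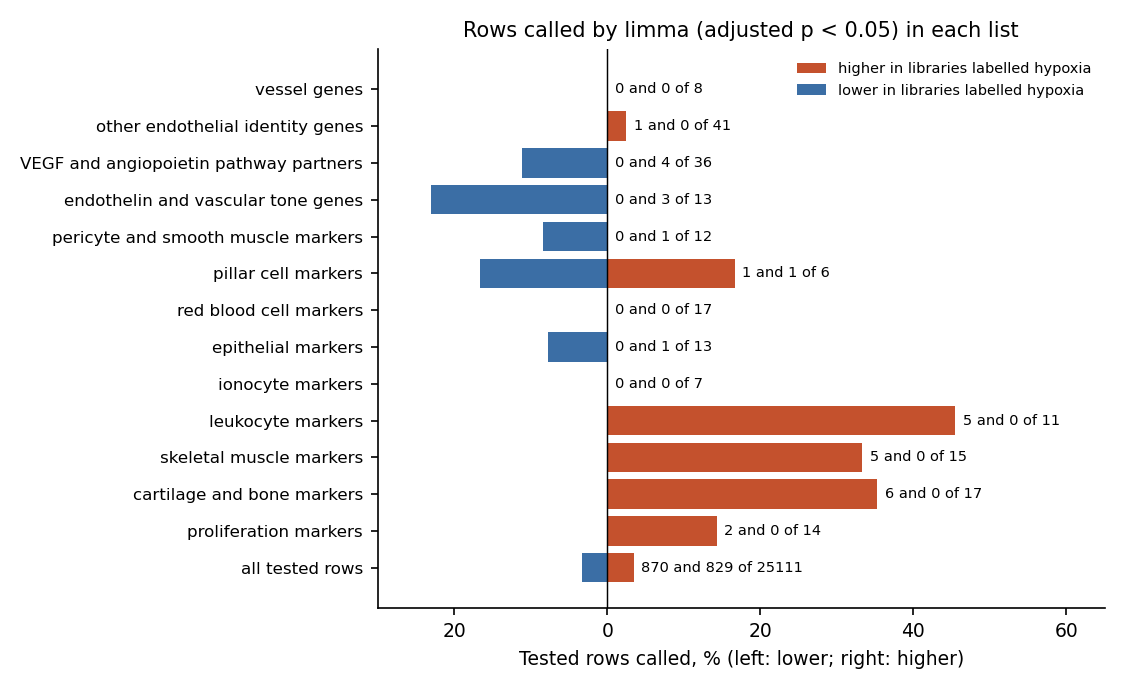
Share of tested rows that limma called at an adjusted p under 0.05 in each list, in percent, with lower rows drawn to the left and higher rows to the right. The text beside each bar gives the rows called higher and lower of those tested, and the bottom bar gives all 25111 tested rows. The vessel genes have 0 of 8, and the leukocyte list has 5 of 11.

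Of 12 tested pericyte and smooth muscle rows, 1 fell (8.33% called, beside 6.77% of all tested rows), the growth factor receptor pdgfra of connective tissue cells (45.8 ± 5.31 to 29.9 ± 2.99 FPKM, SD, n = 3 each; adjusted p = 0.0496, and 0.0697 to 0.148 with any 1 library left out). The summed level of that list was 310 to 318 FPKM in the libraries labelled control and 286 to 351 FPKM in those labelled hypoxia. Of 6 tested rows picked for pillar cells, which include edn1 and ednrab, 1 rose and 1 fell (33.3% called). The row that rose was the FHL2 locus MSTRG.19587, of the four-and-a-half LIM domain proteins, from 1.41 to 1.92 FPKM in the libraries labelled control to 9.54 to 16.7 FPKM in those labelled hypoxia (8.21-fold, adjusted p = 0.00923, and 0.0215 to 0.0372 with any 1 library left out). Estimates were above 0 in 5 of the 6 rows and below 0 in 1. The summed level of the pillar list was 115 to 120 FPKM in the libraries labelled control and 125 to 150 FPKM in those labelled hypoxia. fhl5, a LIM protein gene reported in pillar cells of fish gills, was at most 0.256 FPKM in any library, and no row of this list is specific to pillar cells.

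Marker lists of some other cell types of the gill differed between the labelled groups. In bulk gill, cell number and RNA per cell cannot be told apart for these markers either. The part of such cells in the values of the vessel genes was not tested. Beside the 6.77% of all tested rows that were called, leukocyte markers rose in 5 of 11 tested rows (45.5%; csf1ra, lcp1, coro1a, ptprc and zap70). The count was 1 when hypoxia replicate 1 or 3 was left out, 2 when control replicate 2 or 3 was, 4 for control replicate 1 and 5 for hypoxia replicate 2. Their summed level was 263 to 278 FPKM in the libraries labelled control and 525 to 538 FPKM in those labelled hypoxia. Skeletal muscle markers rose in 5 of 15 rows (33.3%; summed 389 to 538 and 795 to 978 FPKM), but 0 rows passed when control replicate 1 or 3 or hypoxia replicate 1 or 3 was left out, 2 for hypoxia replicate 2 and 3 for control replicate 2. Cartilage and bone markers rose in 6 of 17 rows (35.3%; 90.9 to 94.3 and 299 to 441 FPKM), with 4 when control replicate 1 was left out, 2 for control replicate 3 and 3 for each of the others. Proliferation markers rose in 2 of 14 rows (14.3%; 124 to 194 and 225 to 247 FPKM), with 1 when control replicate 1 was left out and 0 for any other library. None of these lists had a row that fell. On the TPM scale the muscle, cartilage and bone, and proliferation lists had 3, 5 and 0 higher rows. With no filter on low values they had 2 of 18, 4 of 22 and 0 of 15. The tested cartilage and bone rows went from 17 to 15 without hypoxia replicate 1 and to 16 without hypoxia replicate 2. Some of them thus passed the filter only with these libraries included. Epithelial markers, which fit the tissue label, gave 1 lower row, elf3, of 13 (7.69%; 1383 to 1781 and 1428 to 1689 FPKM). That count was 0 when control replicate 2 or 3 or hypoxia replicate 1 or 3 was left out, and with a minimum mean of 5 FPKM the list had 1 higher and 3 lower rows. Ionocyte markers gave 0 of 7 (93.4 to 109 and 81.4 to 103 FPKM), with 2 rows at an unadjusted p under 0.05 and kcnj1b listed at 0 in the 3 libraries labelled control. Red blood cell markers gave 0 of 17 by limma, with 2 rows at an unadjusted p under 0.05 and summed levels of 138 to 531 and 261 to 459 FPKM.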

How the data were processed

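Gene expression of 6 gill libraries was taken from 1 table of the series. Per the submitters' processing notes, which name HISAT and StringTie, the authors deposited FPKM values. For these tools no version, and for the data no genome build or annotation, is given in the sources used here. In the table of 40538 rows, 37062 are loci assembled by StringTie (MSTRG), which can split or merge genes, and near-identical copies can share reads. The supplied reference gene table matched 0 of the identifiers, so no positions or sequences are given.

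FPKM is not a count, so log2(FPKM + 1) was tested with limma 3.58.1 (trend in the empirical Bayes step) in R 4.3.3, two-sided, on the 25111 rows averaging 1 FPKM or more, with Benjamini-Hochberg adjustment over all of them at 0.05. A difference on this scale understates the change of low genes. Ratios within a library were tested with exact permutation tests in scipy 1.17.1. The fit was also run on simulated data, with added differences larger than those of the vessel genes. That run does not show how often differences of their size would be called. The precision is the spread over 3 libraries per group, since the depth is unknown. In any pair of libraries at most 1 value above 0 was identical. The vessel genes and all lists were chosen with earlier results of these data known. Named are every vessel row, up to 6 called rows of each list (or the 2 smallest p as values where none was called: rhag and tmod4 for red blood cells, at adjusted p = 0.0677 and 0.150, and a locus of ATP6V1A for ionocytes, at 0.0589, while 1 further row is not reported here) and the 3 rows most like cdh5.

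Results were recomputed with a pseudocount of 0.1, with no filter or one at 5 FPKM, scaling to TPM, median-of-ratios scaling, quantile normalization, the replicate number as a block, rows of 1 symbol summed, each library left out in turn and, chosen after seeing the data, the hemoglobin rows left out with the libraries rescaled.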

Additional observations from a re-analysis of the deposited data

How the results depend on the processing

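In all 15 alternatives 0 vessel rows were called higher and 0 lower, and the median difference stayed below 0 (-0.06 with a minimum mean of 5 FPKM, where 3 rows were tested, to -0.21 after quantile normalization). Estimates near 0 changed sign. edn1 came to -0.0046 after quantile normalization and to between -0.012 and 0.21 with 1 library left out, kdr to between -0.18 and 0.020, and angpt2a to between -0.34 and 0.052. For ratios to cdh5 the ranges with 1 library left out were -0.036 to 0.43 for kdr, -0.28 to 0.058 for kdrl, -0.028 to 0.37 for angpt2a and -0.29 to 0.073 for flt1. With 0.1 FPKM added in place of 1, the difference in the ratio of angpt1 to cdh5 went from 0.67 to 1.22.

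The values gave no sign that the replicate numbers of the titles pair the libraries, which does not exclude a pairing. The deviations of same-numbered libraries from their group means had correlations of -0.056, -0.0437 and -0.116 over all tested rows. Between libraries of different number they were -0.0217 to 0.0801. The replicate block also leaves fewer residual degrees of freedom than the main fit. With the replicate block 0 rows of the other endothelial list were higher, and 0 of the growth factor partners and 0 of the vascular tone list were lower (0 higher and 2 lower over all rows, and 0 in either direction in the other cell type lists that gave calls, leukocyte, muscle, cartilage and bone, proliferation, epithelial, pericyte and pillar). The other endothelial list had 0 higher rows without a filter and on the TPM scale, 3 with a minimum mean of 5 FPKM and 2 after quantile normalization, 1 lower row on the TPM scale and after quantile normalization, and 0 higher with any 1 library left out. The growth factor partners had 1 higher row without a filter and 0 to 3 lower rows with 1 library left out, and the vascular tone list 1 to 3. The causes were not tested. Over all rows, 870 higher and 829 lower calls became 165 and 190 when control replicate 2 was left out, 106 and 154 for hypoxia replicate 1, and 150 and 172 for hypoxia replicate 3.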

Other observations

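Loci of 1 symbol can carry opposite estimates in this table. The loci MSTRG.12698 and MSTRG.12699 of the endothelin converting enzyme ece1 differed by 0.29 and -0.51 on the log2(FPKM + 1) scale, and neither passed. Their summed FPKM were 12.7, 12.5 and 11.4 in control replicates 1 to 3 and 12.3, 12.9 and 13.3 in hypoxia replicates 1 to 3. In contrast, the loci of ednrab summed to 15.1 ± 0.38 and 3.92 ± 1.39 FPKM and those of nrp2a to 58.3 ± 3.08 and 30.0 ± 2.59 FPKM (SD, n = 3 each), so the lower values of these genes were not offset by another locus of the same name.

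The regulators of G protein signalling rgs5a and rgs5b, markers of pericytes, were looked at after their values were seen. rgs5b was at 18.2, 11.0 and 5.80 FPKM in control replicates 1 to 3 and at 2.47, 2.31 and 3.09 FPKM in hypoxia replicates 1 to 3 (adjusted p = 0.0539). rgs5a was at 4.02, 9.87 and 8.72 FPKM and at 50.2, 9.39 and 28.3 FPKM (adjusted p = 0.175). The copies had estimates of opposite sign, -1.69 and 1.63 on the log2 scale, and neither passed.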
